A study of Rattus norvegicus with 32 samples.

Results

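Lungs of rats that had been bled were compared with lungs of rats that carried no instruments and had not been bled. The comparison used 25 of the 32 arrays of the series: 3 control lungs and 22 lungs taken after hemorrhage. The bled lungs were 3 at 1 h, 3 at 3 h, 5 at 6 h, 2 at 16 h, 3 at 24 h, 3 at 48 h and 3 at 72 h. Samples were taken by their titles, and each of the 7 times was given equal weight. Replicate 3 of the 16 h group was left out because its median over liver genes was 1.52 log2 units, against -0.67 to -0.42 on the control arrays. The 6 sham arrays of the series entered neither the means nor the spread.

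All animals were male Sprague-Dawley rats of 280 to 300 g. Under isoflurane the rats to be bled received 2 arterial catheters and a telemetry device, and they recovered for 7 to 10 days. They then lost 40% of their estimated blood volume, drawn by syringe. Control rats had no operation and no blood withdrawn. Instruments, recovery and blood loss therefore came together in the bled group and cannot be told apart in this comparison. The labels give RNA of each rat lung but do not number the animals, so the p-values rest on sample-to-sample spread, part of which may be technical.

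Loss of a large share of the blood lowers the delivery of oxygen and sets off a sympathetic, hormonal and inflammatory response. The lung receives the whole output of the right heart, holds a large pool of leukocytes in its capillaries, and is a classic site of injury after hemorrhagic shock. Its response is usually described through alveolar epithelium, endothelium, resident and recruited leukocytes, matrix, and the enzymes that handle oxidants and damaged protein.

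Each value is a log2 ratio of lung RNA to a pool of RNA from several rat organs, minus the median of its array, so a value of 1 is a doubling of the ratio over the array's median spot. Because every lung was read against the same pool, a difference between groups is read here as one in lung RNA relative to all other spots of the array. The dye of each channel, the scanner and the normalization are not named. A part of a difference that came from these cannot be told apart. RNA came from 100 mg of lung with all its cell types, so fewer cells of a type and less RNA per cell cannot be told apart. Lung genes gave the direction of the ratio: Sftpc, the surfactant protein of alveolar type II cells, read 3.05, 2.93 and 2.74 on the controls and 0.82 to 4.41 on the bled arrays. The receptor Ager of type I cells read 1.31, 1.72 and 0.77 on the controls and 0.86 to 2.72 after bleeding, so both alveolar cell types were present in the labelled tissue. Neither gene passed the test between the groups (adjusted p = 0.936 and 0.164, limma).

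The arrays had 12151 to 12895 spots with a value. Control replicate 1 stood apart from the other controls. It had the fewest spots with a value, the lowest correlation between the paired spots of a probe among the controls (0.709, against 0.810 and 0.871), and 1.23% of its ratios at or below 0.05, the highest share of the 25 arrays. Among the bled arrays replicate 2 of the 3 h group had the lowest correlation of paired spots (0.623). Each difference from control rests on 3 control arrays, and for most called genes the value without control replicate 1 is given beside the difference.

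Hemorrhage was accompanied by changes in both directions. Of 5993 genes and unnamed probes tested, 403 (6.72%) differed between bled and control lungs at an adjusted p under 0.05 (limma, Benjamini-Hochberg over all tested), 209 higher (3.49%) and 194 lower (3.24%). With a symbol, 176 were higher and 172 lower. At an unadjusted p under 0.05 there were 1575. The called genes differed by a median of 0.97 log2 units in size, and the median difference over everything tested was 0.06. Without centring of the arrays the split was 108 higher and 224 lower.

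The count depended on control replicate 1. Without it 0 genes passed (limma), 717 had an unadjusted p under 0.05, and the smallest adjusted p was 0.0524. All 402 called genes that could still be fitted kept their sign, and 344 of them kept an unadjusted p under 0.05. The difference became more than 1.5 times smaller for 84 of them, of which 82 had been called higher and 2 lower. The count was 127 without control replicate 2, 214 without 16 h replicate 1 and 258 without 72 h replicate 2. It rose to 548 without control replicate 3 and to 584 without 3 h replicate 3. It was 75 without the 6 h arrays, 224 without the 24 h arrays and 265 without the 16 h arrays.

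**Figure D1:**
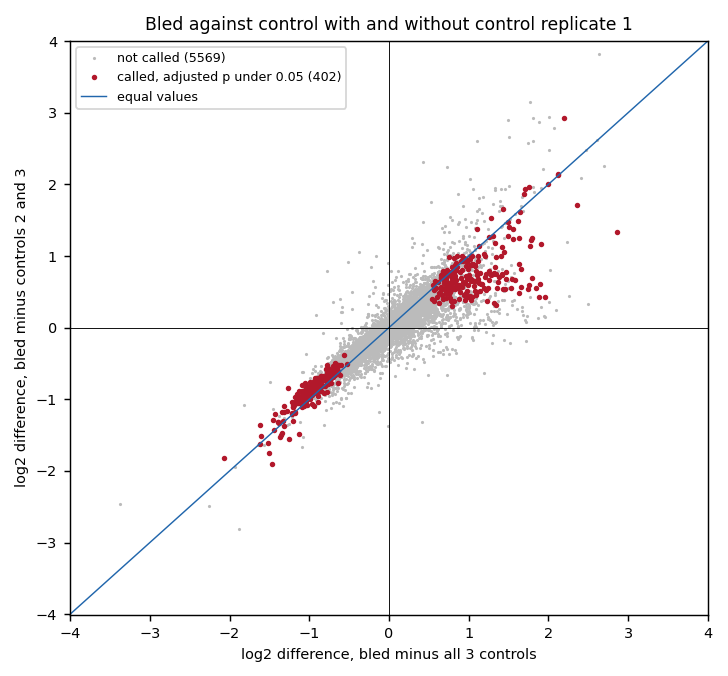
Each point is a gene or unnamed probe: the x axis is the log2 difference of bled lungs from all 3 controls, the y axis the same from control replicates 2 and 3, and red points were called with all 3. The 402 called points keep their sign. The line marks equal values, so red points below it at the right are higher calls that shrank by any amount. Of the higher calls, 82 shrank by more than 1.5 times.

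A different view asks for arrays that do not overlap at all. All 22 bled arrays lay on 1 side of all 3 controls for 95 of the 5993 (1.59%), 34 above and 61 below. Of these 25 and 49 were also called, and the groups of the other calls overlapped. The genes below are taken in the order of their roles, first those that were higher and then those that were lower.

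Among the higher genes were enzymes that remove peroxides. Prdx6, a peroxiredoxin that reduces phospholipid hydroperoxides and also processes surfactant lipids, read -0.20, -1.54 and 0.15 on the 3 controls. On the bled arrays it read 0.30 at the lowest, 1.27 at the median and 2.33 at the highest. Every bled lung was above every control, and the difference was 1.70 ± 0.32 log2 units (SE of the fit, a 3.25-fold rise, adjusted p = 0.0129). It was 1.86 ± 0.39 without control replicate 1, with an adjusted p of 0.0736. Prdx4, the peroxiredoxin of the endoplasmic reticulum, rose by 1.90 ± 0.38 (adjusted p = 0.0157). Its controls read -3.98, -1.35 and -2.20, and without the first of them the difference was 1.17. Gsta2, a glutathione transferase, rose by 1.01 ± 0.23 (adjusted p = 0.0237; 0.73 without control replicate 1).

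The wider set of oxidant defences did not move as 1 group. Of 43 tested genes of oxidative stress and glutathione metabolism, 3 were higher (Prdx6, Prdx4, Gsta2) and 2 lower (catalase, Cat, and Gstt1), 11.6% against 6.72% of all tested. The list's median difference was 0.18 (0.13 without control replicate 1), with 27 of 43 above 0. Cat, which breaks down hydrogen peroxide in peroxisomes, read -0.17, 0.13 and 0.28 on the controls and -1.50 to -0.16 after bleeding. It fell by 0.77 ± 0.21 (adjusted p = 0.0349; -0.90 without control replicate 1). The other peroxiredoxins tested, Prdx1, Prdx2, Prdx3 and Prdx5, differed by 0.20 to 0.57 with adjusted p from 0.488 to 0.737, and Prdx3 turned to -0.11 without control replicate 1.

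Of the proteasome, the protease that degrades ubiquitinated proteins, 5 subunits were higher. Psme2, a subunit of the activator cap that interferon induces, read -0.37, -0.18 and -0.18 on the controls. On the bled arrays it read 0.10, 0.84 and 1.5 at the lowest, median and highest. The groups did not overlap and the difference was 0.99 ± 0.16 (a 1.98-fold rise, adjusted p = 0.0079). It was 0.92 without control replicate 1 (adjusted p = 0.0736). The core subunits Psma6 (1.43 ± 0.36), Psmb3 (1.03 ± 0.26) and Psmb2 (0.62 ± 0.19) and the cap ATPase Psmc2 (0.95 ± 0.25) also rose, with adjusted p of 0.0292, 0.0283, 0.0495 and 0.0334. They stood at 1.66, 0.88, 0.49 and 0.63 without control replicate 1. The proteasome family was singled out after its values were seen: 5 of its 30 tested members were higher (16.7% called, against 6.72% called and 3.49% higher of everything tested) and 0 lower, its median difference was 0.39 (0.38 without control replicate 1), and 26 of 30 were above 0. Its median level was -0.17, 0.05 and -0.04 on the controls and 0.08 to 0.75 on the bled arrays.

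Promoters of these genes are shown because factors of the Nrf family are known to drive both antioxidant enzymes and proteasome subunits through the antioxidant response element. Its core, TGACNNNGC, was searched on both strands of the 250 bases before the start of each gene in RefSeq's GRCr8 promoters. Promoters were found for 29 of the 30 proteasome genes and 34 of the 43 oxidant genes. The core was in 5 of the 29 (17.2%) and in 7 of the 34 (20.6%), against 12.9% of the 4067 promoters of tested genes and 10.2% of all 27457. Of the called genes, Psmb2 held it and the other 4 called proteasome subunits did not. Of the 5 called oxidant genes 3 had a promoter among those searched and 0 held the core. The shares were not tested against each other, and the part of Nrf factors in these differences was not tested. Each stretch below is 59 bases, 5′ to 3′ on the gene's strand, with the core in capitals: Psmb2 as the called member, and Prdx1 and Gstp1 as members that hold the core and were not called (0.22 and -0.52). The Psmb2 stretch lies at chr5:144254965-144255023 on the plus strand, that of Prdx1 at chr5:135383746-135383804 on the plus strand, and that of Gstp1 at chr1:210769733-210769791 on the minus strand.
Psmb2: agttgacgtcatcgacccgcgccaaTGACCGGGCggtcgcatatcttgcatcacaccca
Prdx1: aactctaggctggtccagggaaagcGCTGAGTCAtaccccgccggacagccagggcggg
Gstp1: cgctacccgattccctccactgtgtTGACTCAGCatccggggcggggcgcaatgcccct

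A muscle gene was among the leading rises. Myl1, an alkali light chain of skeletal muscle myosin, read -3.67, -3.79 and -3.59 on the controls, far below the organ pool. On the bled arrays it read -2.72, -1.76 and -0.23 at the lowest, median and highest, so the groups did not overlap. The difference was 2.12 ± 0.39 (4.34-fold, adjusted p = 0.0112), and 2.13 without control replicate 1. Atp2a1, the calcium pump of fast muscle, rose by 1.38 ± 0.34 and Actn3, the actinin of fast fibres, by 1.10 ± 0.28 (adjusted p = 0.0283 and 0.0285). Both had their lowest value on control replicate 1, and without it they differed by 0.71 and 0.49. Of the 31 tested genes of heart and skeletal muscle 3 were higher and 1 lower (Pgam2, a muscle glycolytic enzyme, -1.05 ± 0.30; -0.88 without control replicate 1), against 3.49% higher and 3.24% lower of everything tested. The list's median difference was 0.12 (0.066 without control replicate 1). Its median level was -1.27, -0.88 and -1.09 on the controls and -1.16 to -0.48 on the bled arrays, and the part of muscle RNA in these rises was not tested.

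Cytoplasmic gamma-actin, Actg1, read -0.75, -0.51 and -0.40 on the controls and -0.37 to 1.05 after bleeding, above every control on all 22 arrays. It was named after its values were seen. It rose by 0.96 ± 0.19 (adjusted p = 0.0131; 0.86 without control replicate 1), while Actb, the other cytoplasmic actin, differed by -0.19 ± 0.21 (adjusted p = 0.605). Pacsin1, an adaptor between endocytosis and actin that is best known from neurons, read -1.20, -0.84 and -1.36 on the controls and -1.04, -0.02 and 0.56 at the lowest, median and highest of the bled arrays. Of the bled arrays 21 of 22 were above every control. The difference was 1.03 ± 0.16 (adjusted p = 0.0079; 0.99 and 0.0736 without control replicate 1).

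Mogs, the glucosidase that starts the trimming of N-linked glycans, read -2.15, -1.40 and -0.76 on the controls and -0.67, -0.08 and 0.71 at the lowest, median and highest after bleeding. All 22 bled arrays were above the controls, and the rise was 1.34 ± 0.24 (adjusted p = 0.0112; 0.99 without control replicate 1). Gabrr3, a subunit of a GABA-gated chloride channel, read -1.76, -1.81 and -1.06 on the controls and -1.16, 0.09 and 0.83 after bleeding. It rose by 1.51 ± 0.29 (adjusted p = 0.0134; 1.4 without control replicate 1). Ncoa5, a coregulator of nuclear receptors, had the largest rise among called genes whose 7 time means all lay above the controls, 2.86 ± 0.55 (adjusted p = 0.0131). One of its controls read -6.57, a ratio of 0.01 before centring and the lowest value the files hold, and the others -1.99 and -2.0. Against those others the rise was 1.34 ± 0.28, and all 22 bled arrays, at -1.97 to 0.18, still lay above them.

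Several further rises were much smaller without control replicate 1. The transcription factor Cebpd, an immediate early gene that glucocorticoids and inflammation induce, read -3.87 on that array and -0.50 and -0.65 on the others. The bled arrays read -1.24 to 0.89. Its difference of 1.66 ± 0.42 (adjusted p = 0.0285) became 0.56 without that array. In the same way the kinase Vrk1 went from 1.75 to 0.54, the estrogen receptor Esr2 from 1.63 to 0.88, the proteoglycan enzyme Uxs1 from 1.58 to 0.66, the homeobox gene Vax1 from 1.53 to 0.56 and the liver enzyme Cyp2c7 from 1.96 to 0.43. With all 3 controls their adjusted p lay between 0.0272 and 0.0481.

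Of 48 tested ribosomal protein genes, which encode the translation machinery, 4 were higher (Rpl10a, Rpl30, Rpl35a and Rpl32) and 0 lower. The called share of 8.33% was near the 6.72% of everything tested. The list's median difference was 0.37, and 35 of 48 members were above 0. Without control replicate 1 the median was 0.34, and across no centring and quantile normalization it was 0.30 and 0.27. Rpl10a read -0.55, 0.13 and -0.20 on the controls and -0.04, 1.19 and 2.87 at the lowest, median and highest after bleeding, a rise of 1.55 ± 0.35 (adjusted p = 0.0202; 1.38 without control replicate 1). Rpl30 rose by 1.56 ± 0.40, Rpl35a by 1.26 ± 0.33 and Rpl32 by 0.96 ± 0.25, with adjusted p of 0.0285, 0.0325 and 0.033. These were 1.24, 0.66 and 0.96 without control replicate 1. The list's median level ran from -0.11 to 2.14 over the 22 bled arrays and from 0.44 to 0.65 over the 3 controls. A range widens with the number of arrays, and the spread of the groups was not compared. Of 20 tested translation and splicing factors 0 passed, with a median difference of 0.00 (limma; 4 at an unadjusted p under 0.05, and the smallest adjusted p was 0.0706, for Npm1).

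**Figure D2:**
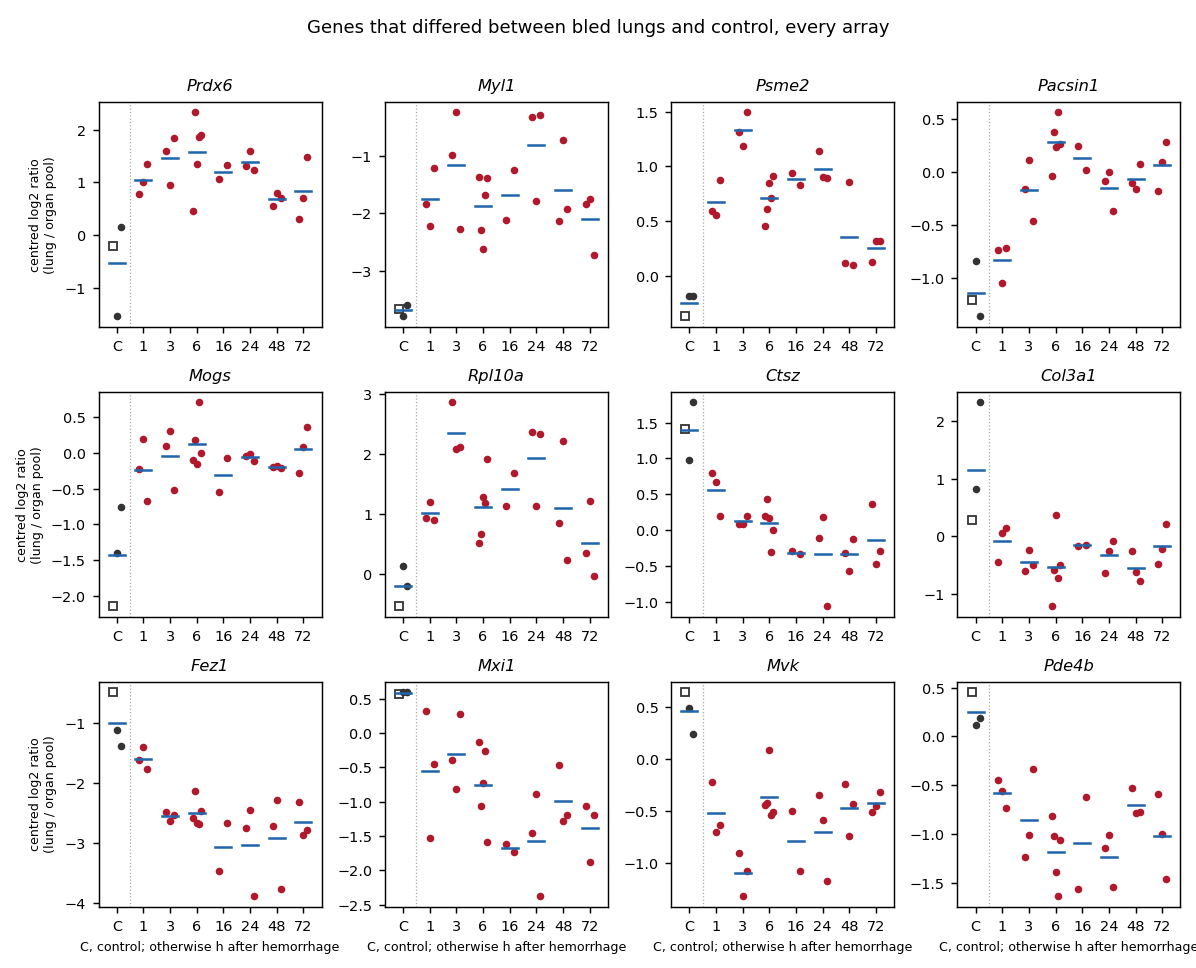
Centred log2 ratio of lung over organ pool (y axis) for 12 genes on every array, by group (x axis: C is control, numbers are hours after hemorrhage); the open square is control replicate 1, filled points are the other arrays and blue bars are group means. Prdx6, Myl1, Psme2 and Mogs sit above every control on all 22 bled arrays, and Ctsz, Fez1, Mxi1, Mvk and Pde4b sit below every control on all 22.

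Of the 194 lower calls 2 shrank by more than 1.5 times without control replicate 1, against 82 of the 209 higher calls. The lower genes included lysosomal proteins. Ctsz, a carboxypeptidase of lysosomes that is abundant in macrophages, read 1.41, 0.98 and 1.79 on the controls. On the bled arrays it read -1.07, 0.04 and 0.79 at the lowest, median and highest. No bled lung reached a control, and it fell by 1.44 ± 0.23 (2.72-fold, adjusted p = 0.0079). The difference was -1.43 without control replicate 1 (adjusted p = 0.0613). Scarb2, a lysosomal membrane receptor, fell by 1.21 ± 0.27 with all 22 bled arrays below the controls (adjusted p = 0.0189; -1.11 without control replicate 1). The lysosomal peptidase Tpp1 fell by 0.85 ± 0.21 and the nuclease Dnase2 by 0.71 ± 0.19 (adjusted p = 0.0272 and 0.0308; -0.88 and -0.59 without it). Scarb2, Tpp1 and Dnase2 were named after their values were seen, and other lysosomal genes went up: Gusb by 0.98, Ctbs by 0.77 and Plbd2 by 0.66 (adjusted p = 0.0481, 0.0452 and 0.0285; 0.51, 0.50 and 0.57 without control replicate 1). Of 11 tested cathepsins, a family also singled out after its values were seen, 2 were lower (Ctsz and Ctsh) and 0 higher. This was 18.2% called, against 6.72% called and 3.24% lower of everything tested. The family's median difference was 0.05 (0.15 without control replicate 1).

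Of the collagen chains 3 were lower. Col3a1, a main collagen of the lung interstitium and vessel walls, read 0.29, 0.83 and 2.33 on the controls and -1.22, -0.35 and 0.37 at the lowest, median and highest after bleeding. It was below every control on 21 of 22 arrays and fell by 1.47 ± 0.30 (adjusted p = 0.0165). The difference was -1.90 ± 0.33 without control replicate 1, with an adjusted p of 0.0524. Col1a2 fell by 0.76 ± 0.20 and Col2a1, the collagen of cartilage, by 1.19 ± 0.21 with no overlap (adjusted p = 0.0307 and 0.0112; -0.78 and -1.19 without control replicate 1). Col1a1, the partner chain of Col1a2, did not pass, with 0.73 ± 0.31 and an adjusted p of 0.138 (0.52 without control replicate 1). Over the 10 collagen chains tested, a family singled out after its values were seen, 3 were lower and 0 higher (30% called). Of everything tested 6.72% were called and 3.24% were lower. The family's median was -0.23 (-0.28 without control replicate 1), with 5 of 10 above 0. Of 35 tested genes of smooth muscle, fibroblasts and matrix, 2 were lower (Col3a1 and Col1a2) and 1 higher (Tgfbr3, a coreceptor of TGF-beta, 0.82 ± 0.19, adjusted p = 0.0249; 0.73 without control replicate 1). In that list 8.57% were called, against the same 6.72%. Its median was -0.16, and -0.33 without control replicate 1.

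Among the lower genes of intracellular signalling was Pde4b. This enzyme, which hydrolyses cyclic AMP in leukocytes and is a target of anti-inflammatory drugs, read 0.46, 0.11 and 0.19 on the controls and -1.64, -1.0 and -0.33 at the lowest, median and highest after bleeding. It fell by 1.21 ± 0.22 (adjusted p = 0.0112; -1.11 without control replicate 1). Pde1a fell by 0.98 ± 0.19, also with no overlap, and Pde4d by 0.78 ± 0.21 (adjusted p = 0.014 and 0.0347; -0.89 and -0.52 without it). Pde4a did not pass, at -0.04 ± 0.18 (-0.05 without control replicate 1). The family of cyclic nucleotide phosphodiesterases was singled out after its values were seen: 3 of 16 were lower and 0 higher. This was 18.8% called, against 6.72% called and 3.24% lower of everything tested. The median of the family was 0.16 (0.065 without control replicate 1) and 10 of 16 were above 0. Cyth2, which activates the ARF GTPases of membrane traffic, read -0.04, -0.20 and 0.72 on the controls and -1.59, -1.03 and -0.57 after bleeding. It fell by 1.21 ± 0.20 (adjusted p = 0.0079), and the difference was -1.31 without control replicate 1 (adjusted p = 0.0524).

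Other leading falls were found in metabolism and transcription. Mvk, mevalonate kinase of the cholesterol pathway, read 0.64, 0.48 and 0.24 on the controls and -1.32, -0.51 and 0.08 at the lowest, median and highest after bleeding, with no overlap. It fell by 1.08 ± 0.19 (adjusted p = 0.00906; -0.99 without control replicate 1). Mxi1, an antagonist of Myc, had nearly the same value on the 3 controls, 0.57, 0.59 and 0.60, and read -2.38, -1.06 and 0.32 after bleeding. It fell by 1.62 ± 0.34 (adjusted p = 0.0166; -1.63 without control replicate 1). Fosl1, a member of the AP-1 family, fell by 1.15 ± 0.22 with all 22 bled arrays below the controls (adjusted p = 0.0134; -0.98 without it). Nr3c2, the mineralocorticoid receptor, fell by 1.43 ± 0.29 (adjusted p = 0.0145; -1.21 without it), while the glucocorticoid receptor Nr3c1 differed by -0.04 ± 0.17. Fez1, an adaptor of kinesin transport, read -0.48, -1.12 and -1.39 on the controls and -3.89, -2.61 and -1.39 after bleeding, and fell by 1.62 ± 0.28 (adjusted p = 0.00906; -1.36 without it). Vcsa2, which encodes a salivary prohormone of the rat, had the largest fall among called genes whose 7 time means all lay below the controls, 2.07 ± 0.47 (adjusted p = 0.023; -1.82 without it).

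Lung cell types were described by their marker lists, whose counts stand against 6.72% called (3.49% higher, 3.24% lower) of everything tested, as do those of all lists that follow. Of 16 tested surfactant and type II pneumocyte genes 0 were higher and 2 lower. These were Muc1, a membrane mucin of the apical epithelium (-0.89 ± 0.22, adjusted p = 0.0272, below the controls on all 22 arrays), and Ctsh, the cathepsin that processes surfactant proteins (-0.75 ± 0.18, adjusted p = 0.0272). They were -0.70 and -0.76 without control replicate 1. The surfactant genes Sftpc and Sftpb themselves differed by 0.07 ± 0.40 and -0.18 ± 0.26, and the sign of Sftpb turned to 0.10 without control replicate 1. Of 9 type I genes 1 was lower (Akap5, an anchor of protein kinase A, -0.78 ± 0.20, adjusted p = 0.0285; -0.64 without it), and of 11 club and ciliated cell genes 0 passed (limma; 3 at an unadjusted p under 0.05), with the club cell secretoglobin Scgb1a1 at -0.50 ± 0.48. Of 14 endothelial genes Mcam, an adhesion molecule, was higher (0.98 ± 0.28) and Fabp4, a fatty acid binding protein of capillaries and fat cells, lower (-0.89 ± 0.24), with adjusted p of 0.0415 and 0.0347. They were 0.69 and -0.95 without control replicate 1.

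Leukocyte lists gave few calls, from 0 to 3 each. Ptprc, the phosphatase found on all leukocytes, read 1.15, 0.85 and 0.69 on the controls and -0.86, -0.07 and 1.07 at the lowest, median and highest after bleeding. It fell by 0.99 ± 0.20 (adjusted p = 0.0145; -0.86 without control replicate 1). In the same list of 33 T and NK cell genes the costimulator Icos (0.89 ± 0.23) and the T cell cytokine Il2 (1.12 ± 0.33) were higher, with adjusted p of 0.0307 and 0.0487 and values of 0.50 and 1.0 without it. Of 14 neutrophil genes 1 was higher, the collagenase Mmp8 of neutrophil granules. Its controls read -4.12, -2.54 and -1.77 and the bled arrays -3.24, -0.68 and 3.46 at the lowest, median and highest, a rise of 2.36 ± 0.63 (adjusted p = 0.0332; 1.71 without control replicate 1). The calgranulin S100a9, chosen after its values were seen, read 0.09, -0.10 and -0.03 on the controls and -0.17 to 5.39 after bleeding, and did not pass (1.65 ± 0.60, adjusted p = 0.091). The median of the neutrophil list differed by -0.02. Of 23 monocyte and macrophage genes and 6 B and plasma cell genes 0 passed (limma; 1 and 2 at an unadjusted p under 0.05), with smallest adjusted p of 0.0531 and 0.0529.

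Mast cell and erythroid genes also split. Of 17 mast cell and basophil genes the protease Mcpt10 was higher (1.21 ± 0.32, adjusted p = 0.0334) and the chymase Cma1 lower (-0.75 ± 0.21, adjusted p = 0.0424), with 1.0 and -0.64 without control replicate 1. That list's median level was -0.88 on control replicate 1 and -0.44 and -0.16 on the other controls, so its median difference of 0.44 became 0.21 without that array. Gata1, the erythroid transcription factor, was the 1 called gene of 12 erythroid and blood genes (-1.04 ± 0.31, adjusted p = 0.0483; -1.02 without it). The alpha globin gene Hba-a3, named after its values were seen, read -1.84, -1.70 and -2.0 on the controls and -1.51 to 0.69 on the bled arrays, with no overlap. It rose by 1.14 ± 0.25 (adjusted p = 0.0189; 1.14 without it).

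Inflammatory signalling was represented by few genes. Of 62 tested cytokine, chemokine and NF-kB response genes 4 were higher and 0 lower: the chemokines Ccl5 (0.70 ± 0.20) and Cx3cl1 (0.82 ± 0.23) and the cytokines Il6 (1.11 ± 0.31) and Il2. Their adjusted p lay between 0.0384 and 0.0487, and 6.45% of the list was called against 6.72% of everything tested. Without control replicate 1 Ccl5 stood at 0.63, Cx3cl1 at 0.55 and Il6 at 0.73, and the list's median went from 0.08 to -0.10. Il6 read -2.82, -1.96 and -1.42 on the controls and -2.29, -1.0 and 0.08 after bleeding, so 16 of 22 arrays were above every control. The early cytokines Tnf and Il1b did not pass (0.24 ± 0.48 and 0.19 ± 0.23, adjusted p = 0.785 and 0.62; -0.13 and 0.23 without control replicate 1). Of 18 interferon-stimulated genes 0 passed (limma; 4 at an unadjusted p under 0.05, smallest adjusted p 0.0823). Of 37 immediate early genes Cebpd was higher and Fosl1 and the synaptic scaffold gene Homer1 (-0.94 ± 0.24, adjusted p = 0.0285; -0.83 without control replicate 1) lower.

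Lipid mediators and vascular hormones gave 3 calls among 70 genes. Alox5, the lipoxygenase that starts leukotriene synthesis, was above every control on all 22 bled arrays and rose by 0.53 ± 0.16 (adjusted p = 0.0481; 0.40 without control replicate 1). The constitutive cyclooxygenase Ptgs1 fell by 0.78 ± 0.21 and the vasopressin receptor Avpr1b by 1.05 ± 0.28 (adjusted p = 0.0362 and 0.0334; -0.65 and -0.77 without it). In coagulation and fibrinolysis 3 of 19 genes (15.8%) were higher and 0 lower: prothrombin F2, the fibrinogen chain Fgb, and Anxa2, a cell surface cofactor of plasmin formation (0.72 ± 0.19, adjusted p = 0.0335; 0.69 without it). The complement component C5 was the 1 called gene of 15 complement genes and fell by 1.08 ± 0.27 (adjusted p = 0.0272; -1.02 without it).

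Genes of oxygen supply, the clock, hormone response and fluid transport gave few calls each. Of 39 hypoxia and glycolysis genes 1 was higher, Pdk1, the kinase that closes the entry of pyruvate into mitochondria (1.30 ± 0.29, adjusted p = 0.0189; 0.75 without control replicate 1). The 3 lower members were Mxi1 and the glycolytic enzymes Pfkm (-0.85 ± 0.21) and Aldoa (-0.87 ± 0.25), with adjusted p of 0.0283 and 0.0399 and values of -0.70 and -0.77 without it. Of 15 clock genes the repressor Nr1d1 was higher (0.73 ± 0.19, adjusted p = 0.0307; 0.51 without it) and was above every control on all 22 arrays, and Per2 and Bmal1 did not pass (-0.66 ± 0.31 and -0.58 ± 0.22, adjusted p = 0.179 and 0.101; -0.70 and -0.36 without it). Of 29 glucocorticoid targets 3 were higher (Cebpd, Scnn1g and Mertk) and 1 lower (Nr3c2). Mertk is the receptor macrophages use to take up dying cells. It read -0.60, -0.35 and -0.64 on the controls and -0.26 to 1.34 after bleeding, and rose by 1.04 ± 0.26 (adjusted p = 0.0285; 1.0 without it). Of 33 genes of alveolar fluid and ion transport the sodium channel subunit Scnn1g (0.75 ± 0.22) and the sodium-proton exchanger Slc9a2 (0.78 ± 0.23) were higher, and Nedd4, the ubiquitin ligase whose family removes that channel, was lower (-1.11 ± 0.26), with adjusted p of 0.0469, 0.0481 and 0.0246. These were 0.48, 0.54 and -1.01 without control replicate 1.

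Growth, death and housekeeping lists had 2.13% to 9.38% of their genes called, on both sides of the 6.72% of everything tested. Of 38 apoptosis genes 2 were lower, among them Bcl2a1, a survival factor of leukocytes, which read 1.00, 0.69 and 2.27 on the controls and -1.11, 0.02 and 0.61 after bleeding (-1.37 ± 0.31, adjusted p = 0.0204; -1.53 without control replicate 1). Of 33 cell cycle genes the securin Pttg1 was higher (0.74 ± 0.18, adjusted p = 0.0272; 0.48 without it) and E2f5 and Ccng1 lower. Of 47 mitochondrial respiration genes Mdh1 was the 1 called (0.66 ± 0.17, adjusted p = 0.0307; 0.70 without it), and of 32 heat shock genes the small chaperone Cryab was (2.00 ± 0.52, adjusted p = 0.0366). Cryab had values on 2 of the 3 controls, -3.87 and -3.85, and on 18 bled arrays, -3.52 to -0.03. Of 64 xenobiotic genes 4 were higher and 2 lower.

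Genes of other organs were followed because liver RNA was seen on excluded arrays. Of 51 liver genes 6 were higher (F2, Fgb, Arg1, Cyp2c7, Cyp2e1 and Mbl2) and 0 lower, 11.8% of the list against 6.72% called and 3.49% higher of everything tested. The median difference was 0.26 (0.17 without control replicate 1), with 40 of 51 above 0. The list's median level was -0.67, -0.42 and -0.61 on the controls and -0.68 to 0.21 on the bled arrays. The highest were 6 h replicate 4 at 0.21 and 48 h replicate 2 at 0.12. Prothrombin F2 read -2.15, -2.15 and -1.18 on the controls and -1.59, -0.64 and 0.12 at the lowest, median and highest after bleeding, and rose by 1.19 ± 0.24 (adjusted p = 0.0157; 1.03 without control replicate 1; 1.20 without 6 h replicate 4). Fgb read -1.44, -1.44 and -1.46 on the controls and -1.09 to 0.55 after bleeding, and rose by 0.93 ± 0.26 (adjusted p = 0.0401; 0.93 without control replicate 1; 0.90 without 6 h replicate 4). Albumin, Alb, the defining liver transcript, read -3.25, -1.54 and -3.98 on the controls and -4.82, -2.99 and 0.01 after bleeding, and differed by 0.15 ± 0.71 (adjusted p = 0.919). Haptoglobin, Hp, and Serpina1 differed by 0.45 ± 0.46 and 0.04 ± 0.42. Of 29 kidney, gut and skin genes 3 were higher and 2 lower, of 35 brain genes 2 were higher and 1 lower, and of 10 adipose genes 1 was lower. The part of other organs' RNA in these differences was not tested.

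**Figure D3:**
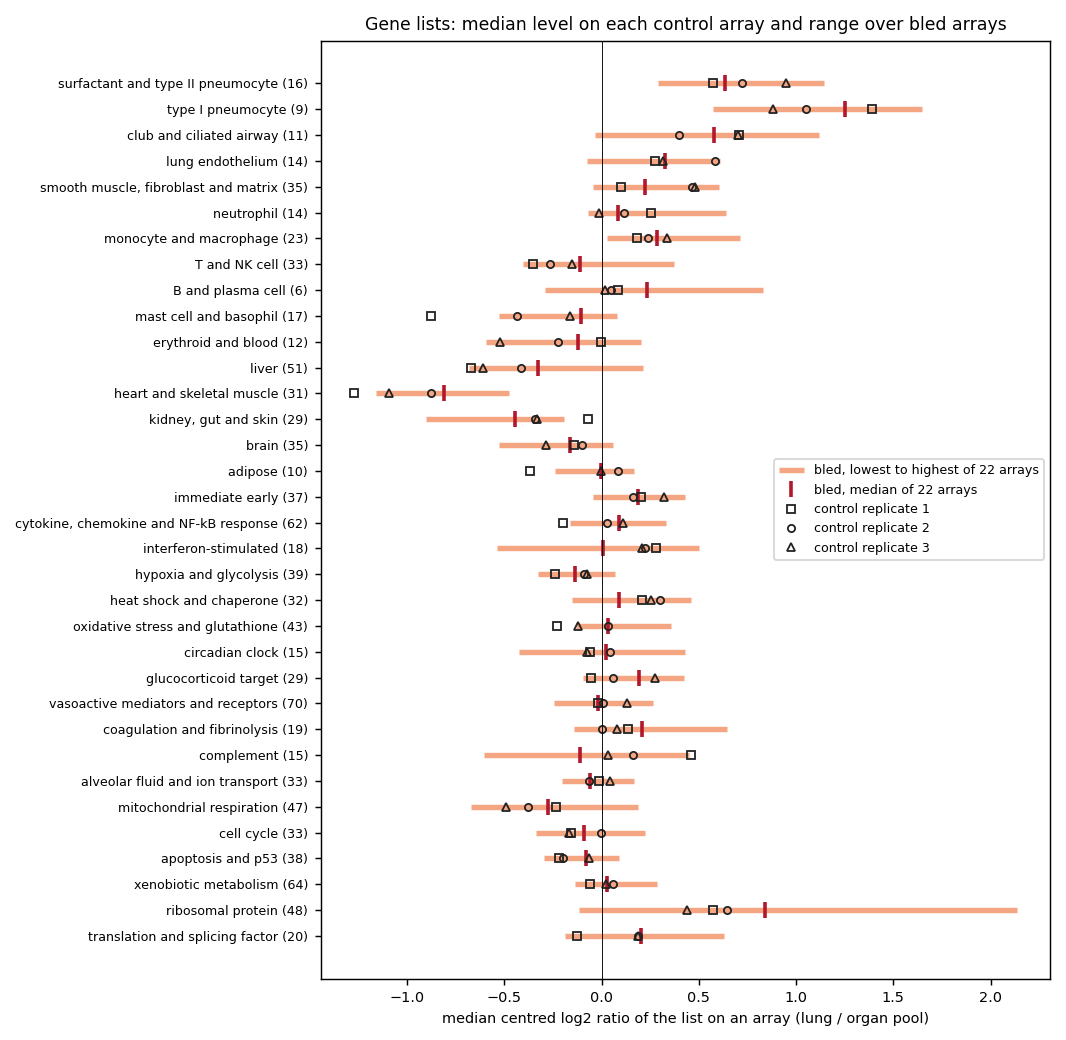
Median centred log2 ratio of each list's genes (x axis, lung over organ pool) on the 3 control arrays (open symbols) and over the 22 bled arrays (bar from lowest to highest, tick at the median); the number of tested genes is in brackets. The liver and ribosomal protein lists reach 0.21 and 2.14 on bled arrays. Control replicate 1 lies below the bled range for the mast cell, muscle, adipose, oxidative stress and cytokine lists. It lies above that range for the complement list and for the list of kidney, gut and skin.

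Early and late lungs were each set against the same 3 control arrays, so the comparisons share their controls. At 1, 3 and 6 h 224 genes (3.74%) differed from control, 136 higher and 88 lower. At 24, 48 and 72 h 397 (6.62%) differed, 182 higher and 215 lower. Without control replicate 1 these were 4 and 10, without control replicate 2 they were 68 and 230, and without control replicate 3 334 and 566. The early count also moved by more than 1.5 times with single bled arrays: to 451 without 3 h replicate 3, 105 without 3 h replicate 1, 111 without 1 h replicate 2 and 106 without 1 h replicate 3. Leaving out 6 h replicate 2, 3, 4 or 5 gave 137, 142, 120 or 101. It was 147 without either 16 h array and 131 without 48 h replicate 1. The early and late values of single genes were computed with all 3 controls. Early, the smallest adjusted p was that of Psme2 (1.15 ± 0.17, adjusted p = 0.00624; late 0.77, adjusted p = 0.0128). Col2a1, Cyth2 and Mvk were lower by like amounts at both stages: -1.30 and -1.02, -1.21 and -1.12, and -1.12 and -0.99, with adjusted p from 0.00724 to 0.0173. Tubg1, a tubulin of the centrosome, was -0.50 early (adjusted p = 0.0838) and -1.16 late (adjusted p = 0.00347), and the DNA repair nuclease Mre11 -0.55 and -1.45 (adjusted p = 0.152 and 0.0035). For Tubg1 and Mre11 the F test among the 7 times did not pass (adjusted p = 0.0613 and 0.0666), and early was not tested against late by itself. Ribosomal protein genes had a median of 0.62 early and 0.27 late.

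Among the bled lungs alone 46 genes (0.768%) differed among the 7 times (moderated F test, limma, adjusted p under 0.05), and this test compares no control value, although the spread it uses includes the controls. Ctsh read a mean of 1.45, 1.62 and 0.96 at 1, 3 and 6 h, 0.53 at 16 h and 0.39, 0.05 and 0.21 at 24, 48 and 72 h (adjusted p = 0.0139). The controls read 1.49, 1.51 and 1.5, so the 1 h and 3 h means lay near control and the means from 6 h on below it. Atp1b1, the beta subunit of the sodium pump, read 1.34 at 1 h and 0.73 at 3 h and -0.71 to -0.52 from 6 h on (adjusted p = 0.0143), with controls of 0.31, 0.49 and -0.19. Cdh1, the E-cadherin of epithelial junctions, read -0.43 at 1 h and -2.27 to -1.88 from 16 h on, against -0.05, 0.10 and -0.67 on the controls (adjusted p = 0.0474). Ddx39b, a helicase of mRNA export, went from -0.06 at 1 h to -1.86 at 72 h (adjusted p = 0.0484). Atp2c2, a calcium and manganese pump of the Golgi, moved the other way, from -1.25 at 1 h to 0.63 at 72 h (adjusted p = 0.0139). The lysosomal protease Ctsd, named after its values were seen, read 1.63 at 1 h and -0.03 at 72 h (adjusted p = 0.0402). The count of 46 moved by more than 1.5 times with single arrays. It was 119 and 91 without 24 h replicates 2 and 1, 116 without 48 h replicate 2, and 106 and 73 without 3 h replicates 2 and 1. It was 9 and 17 without 72 h replicates 3 and 2, 18 without 16 h replicate 1, and 23 without 48 h replicate 1 or control replicate 2. Leaving out 1 h replicate 2 or 3 gave 25 or 26, and leaving out 6 h replicate 1, 2, 4 or 5 gave 21, 24, 25 or 28.

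**Figure D4:**
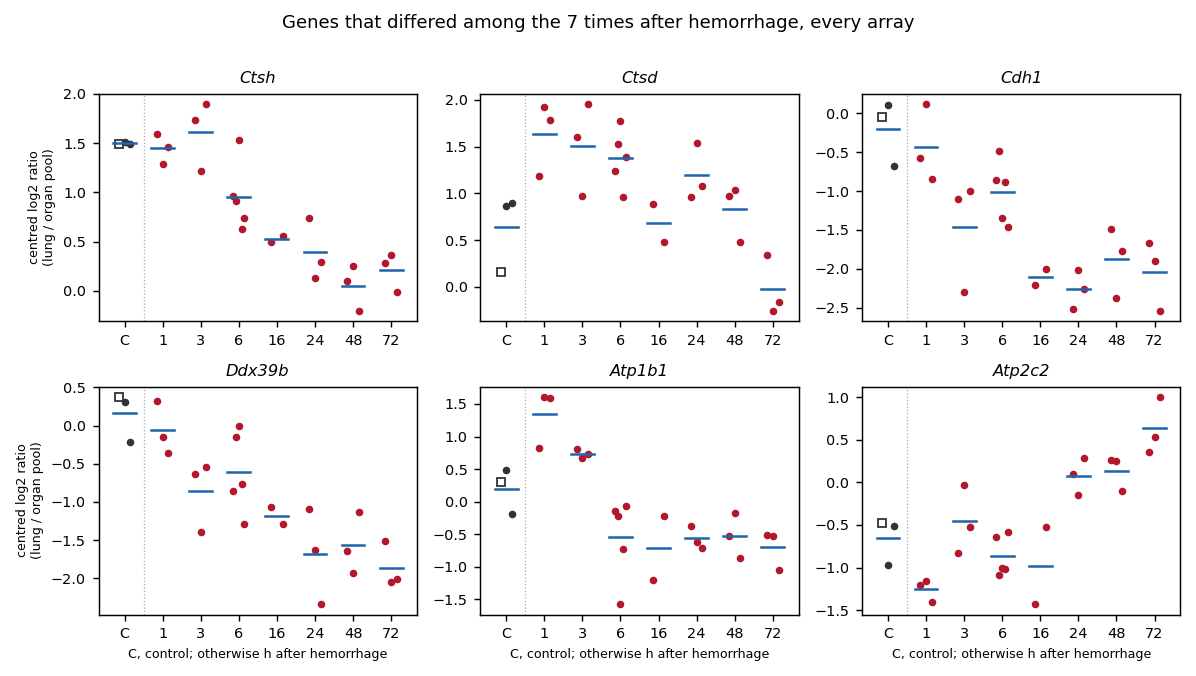
Centred log2 ratio (y axis) on every array by group (x axis: C is control, numbers are hours after hemorrhage) for 6 genes that differed among the 7 times; the open square is control replicate 1 and blue bars are group means. Ctsh, Cdh1 and Ddx39b are near the controls at 1 h and lower on the later days, and Atp2c2 is lowest at 1 h and highest at 72 h.

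Sham rats carried the same instruments but were not bled, and their arrays were kept out of the fit. Their values stand here beside the others with no test, over 5 arrays, without sham replicate 2, whose liver median was 2.19. For Prdx6 the sham arrays read 0.62 to 2.24 (mean 1.16), inside the bled range of 0.30 to 2.33 and above the controls. For Rpl30 they read 0.73 to 2.24 (mean 1.19), and the controls -0.12 to 0.93. For Vcsa2 they read -3.02 to -2.31 (mean -2.54), below the controls and inside the bled range of -5.48 to -1.79. For Ctsh they read 1.24 to 1.56 (mean 1.43), around the controls. For Gabrr3 they read -1.68 to -0.62 (mean -1.33) and for F2 -1.78 to -1.38 (mean -1.61), within or near the controls. For Ctsz (0.12 to 1.19) and Pde4b (-0.51 to -0.01) the sham means of 0.75 and -0.32 lay between the lowest control and the median of the bled arrays. The sham lungs thus stood near the bled lungs for some genes and near the controls for others, and this was not tested.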

How the data were processed

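Lung RNA of each rat and a pool of organ RNA (10 organs stated, 9 named) were hybridised to spotted 2-colour arrays of 13056 spots. The deposited values are log2 ratios of lung over pool, rounded to 0.01 on the linear scale with 0.01 as the lowest; no label or header names the dye of each channel, the scanner or the normalization, and the direction was read from lung genes. Each array's median was subtracted and spots of a gene were averaged, giving 6223 genes and unnamed probes (5022 with 1 symbol, from the platform annotation), of which 5993 had 2 or more values in each of the 8 groups. limma 3.58.1 in R 4.3.3 (lmFit, eBayes; statmod 1.5.0) compared the mean of the 7 time means with control, likewise early and late times, and the 7 times by a moderated F test, at a Benjamini-Hochberg adjusted p under 0.05. The code was tested on simulated data.

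Up to 14 called genes in each direction with all 7 time means beyond the controls were eligible by size. Then came up to 4 called members per list (or the 2 of smallest p), then up to 5 by p from the early, late and F tests. Genes given with values outside these rules were named after their values were seen, whether or not the text says so. Among them are genes given as not passing, such as Sftpc, Sftpb, Ager, Scgb1a1, Alb, Tnf, Il1b, Per2, Bmal1, Nr3c1, Col1a1, Actb and Pde4a. Members and lists were chosen with earlier results of these data known. Alternatives varied centring, normalization, low ratios, filter, averaging, arrays and blocks. Arrays carry no counts, so their number and the spot signal set the precision.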

Additional observations from a re-analysis of the deposited data

Results flagged for a closer look

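In the 6 h group of 5 lungs, 173 genes were examined for a single array far from the others, and 9 passed Dixon's limit; chance alone flags about 1 in 20 groups. On replicate 4 Cryab read -3.52 (others -2.03 to -1.73), Mfsd10 -2.91 (others -2.03 to -1.81), Cat -1.15 (others -0.70 to -0.54), Actb -0.5 (others 0.01 to 0.10) and Pdk1 0.28 (others -0.60 to -0.42). That array also had the highest liver median of the compared arrays, 0.21. On replicate 3 Mvk read 0.08 (others -0.54 to -0.43) and Rhbdl2 -2.86 (others -1.73 to -1.32). Fcer2 read 0.54 on replicate 1 (others 1.03 to 1.20) and Mcpt10 -0.16 on replicate 5 (others 0.17 to 0.25).

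Among the 7 times after hemorrhage the F test (limma, adjusted p) separated Ctsh, Atp2c2, Rhbdl2 and Clrn1 (each 0.0139), Atp1b1 (0.0143), Cdh13 (0.016), Ctsd (0.0402), Cdh1 (0.0474) and Ddx39b (0.0484). Some of these rest on 1 time. The mean of Rhbdl2 was -4.92 at 24 h and -1.80 to -0.84 at the others. Its 24 h values came from only 2 arrays and were -6.27 and -3.58. The lower of them is near the lowest value the files can hold. The mean of Clrn1 was -3.54 at 3 h and -0.97 to 0.26 at the others. Cdh13 had no steady course, with means of -4.16 at 24 h and 3.0 at 48 h.

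On arrays outside the comparison the median over 51 liver genes was 1.52 on 16 h replicate 3 and 2.19 on sham replicate 2, against -0.42 on the highest control.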

How the results depend on the processing

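Against 403 calls (all bled), 224 (early), 397 (late) and 46 (among times), the counts moved by more than 1.5 times as follows. Keeping 16 h replicate 3 gave 237 (all), 78 (early) and 22 (among times), and the sham arrays in the fit gave 145 (early). Among the times, quantile normalization gave 76, only genes with values on all arrays 85, and averaging by accession 77. With the replicate number as a block the counts were 197 (all), 0 (early; 1194 at an unadjusted p under 0.05, limma) and 6 (among times). Deviations of same-numbered arrays of different groups correlated at a median of -0.004 over 77 pairs, from -0.42 to 0.35. For arrays of other numbers the median was 0.013, from -0.33 to 0.34. No common pairing by number was seen, and a batch shared by some of the arrays was not tested. Array weights, added after seeing the data, gave 2379, 2150, 1884 and 2220, but their estimate did not converge. Leaving out 1 array gave 0 to 584 (all), 4 to 451 (early), 10 to 566 (late) and 9 to 119 (among times). Without both control replicate 1 and 3 h replicate 2, added likewise, the counts were 0 (795 at an unadjusted p under 0.05, limma), 5, 20 and 117. Leaving out a whole time gave 75 without 6 h, 265 without 16 h and 224 without 24 h (all). The 125 called named genes kept their sign in all 5606 pairs of gene and setting, with an adjusted p at or over 0.05 in 1119; 55 stayed called in every planned setting that left out no array or time. Signs turned for genes that were not called: Prdx3 to -0.11 without control replicate 1 (highest 0.52 without control replicate 2) and -0.063 without both doubted arrays, Sftpb (-0.48 to 0.10; 0.16 without both), Apob (-0.86 to 0.17; 0.19 without both), and with array weights Ctsl to -0.019 and Alb to -0.87. Of single arrays, control replicate 1 moved the counts against control most; the count among times was 56, 23 and 59 without control replicates 1, 2 and 3, and moved further with single bled arrays.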
